A study of Mus musculus with 35 samples.

Results

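The genes of cholesterol synthesis and of its control were followed in laser-dissected motoneurons of the lumbar spinal cord. The list names 29 genes: 19 enzymes that build cholesterol from acetyl units and 10 genes that sense, move, export or oxidise sterols. A gene was counted where a probe set of the array names it and no other gene. By that rule 28 of the 29 genes were measured, by 61 probe sets of 45101 on the array, and Acat2 was not analysed here. All 28 genes kept at least 1 probe set after the filter on dim and invariant probe sets, with 52 of their 61 probe sets left, beside 14257 genes in all. Each gene was read at its brightest remaining probe set. Other probe sets are given where they were called in a comparison described, and for some genes where they ran the other way.

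The series holds 35 female mice with 1 array each. SOD1G93A mice (B6.Cg-Tg(SOD1-G93A)1Gur/J) carry many copies of a human SOD1 gene with a mutation that causes amyotrophic lateral sclerosis. The transgene is driven by the human gene's own promoter and is therefore not limited to motoneurons. Wild-type (WT) littermates, given as C57BL/6J, were the controls. At week 11 of age, before motor symptoms, 8 SOD1 and 6 WT mice were sampled without treatment. At week 15, at an early symptomatic stage, 7 WT mice, 7 SOD1 mice given vehicle and 7 SOD1 mice given the growth factor G-CSF were sampled. Vehicle and G-CSF were delivered from week 11 on by a pump under the skin, and no pump is described for WT mice. About 300 motoneurons were collected per mouse. Values are log2 intensities, so a difference of 1 is a doubling of the signal.

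Cholesterol does not cross from blood into the nervous system, so neural cells make their own or take it up from glia in lipoproteins that carry apolipoprotein E. Synthesis starts with acetyl units that are joined and reduced to mevalonate, goes on to isoprenoid units and squalene, and ends with the ring-shaped sterols. When membranes hold little sterol, Scap escorts the SREBP transcription factors (Srebf1, Srebf2) to be cleaved, and these switch on the enzymes together. Insig proteins hold Scap back when sterol is plentiful. Excess sterol leaves through Abca1 and Abcg1, or, in neurons, after hydroxylation by Cyp46a1.

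The stretches before the transcript starts of 4 enzymes that were lower in SOD1 mice are shown because the enzymes of this pathway are known for shared control regions. The sequences are RefSeq's, on build GRCm38.p6, 250 bases each up to the base before the start, read 5' to 3' on the gene's strand. Capitals mark the sterol regulatory element searched as TCACNCCAC and the NF-Y box CCAAT, which reads ATTGG where it lies on the opposite strand. The stretches are chr13:119690101-119690350 (plus strand) for Hmgcs1, chr5:4104698-4104947 (minus) for Cyp51, chr19:6067851-6068100 (minus) for Tm7sf2 and chr1:169969206-169969455 (minus) for Hsd17b7.
Hmgcs1: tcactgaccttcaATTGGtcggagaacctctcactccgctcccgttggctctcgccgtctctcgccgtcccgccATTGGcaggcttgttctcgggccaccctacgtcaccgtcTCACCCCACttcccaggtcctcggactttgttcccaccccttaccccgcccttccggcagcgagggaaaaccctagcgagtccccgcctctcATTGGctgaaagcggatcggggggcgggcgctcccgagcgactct
Cyp51: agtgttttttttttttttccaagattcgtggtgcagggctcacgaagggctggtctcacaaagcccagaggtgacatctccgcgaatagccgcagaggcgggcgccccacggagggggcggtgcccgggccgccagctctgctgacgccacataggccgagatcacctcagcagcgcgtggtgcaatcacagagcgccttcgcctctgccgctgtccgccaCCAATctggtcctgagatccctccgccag
Tm7sf2: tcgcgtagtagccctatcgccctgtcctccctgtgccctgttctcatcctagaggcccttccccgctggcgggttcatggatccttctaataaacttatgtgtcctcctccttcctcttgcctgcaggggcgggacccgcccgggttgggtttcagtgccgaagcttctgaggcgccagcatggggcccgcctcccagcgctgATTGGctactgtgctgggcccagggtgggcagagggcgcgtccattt
Hsd17b7: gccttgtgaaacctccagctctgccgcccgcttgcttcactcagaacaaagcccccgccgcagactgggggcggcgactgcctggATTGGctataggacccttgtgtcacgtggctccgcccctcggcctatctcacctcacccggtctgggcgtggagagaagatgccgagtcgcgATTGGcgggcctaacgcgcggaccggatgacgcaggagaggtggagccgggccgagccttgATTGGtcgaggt
Hmgcs1 holds a sterol regulatory element from -137 to -129 and 3 NF-Y boxes. Cyp51 and Tm7sf2 hold 1 NF-Y box each and Hsd17b7 holds 3.

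Promoters were found for 24 of the 29 genes (Fdps, Fdft1, Sqle, Abcg1 and Stard4 had no entry). Of the 14 synthesis genes with a single promoter, 13 held CCAAT on either strand within the 250 bases, and Acat2 did not. Among all 32851 promoters of the table, 33.85% did. The GC box GGGCGG, which Sp1 can bind, was in 13 of the 14 and in 32.742% of all promoters. The sterol regulatory element in this strict spelling was in 1.053% of all promoters and, among the listed genes, in Hmgcs1 alone. The E-box CACGTG (6.021% of all) was in 3 of the 16 synthesis genes with any promoter. The direct repeat that LXR receptors bind was searched in its exact spelling only, which was in 0.015% of all and in no listed gene. Repeats that depart from that spelling were not searched, so this does not show that LXR sites are absent. No letters of one searched motif lie inside another. A match describes the sequence and does not show that a factor binds there.

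**Figure D1:**
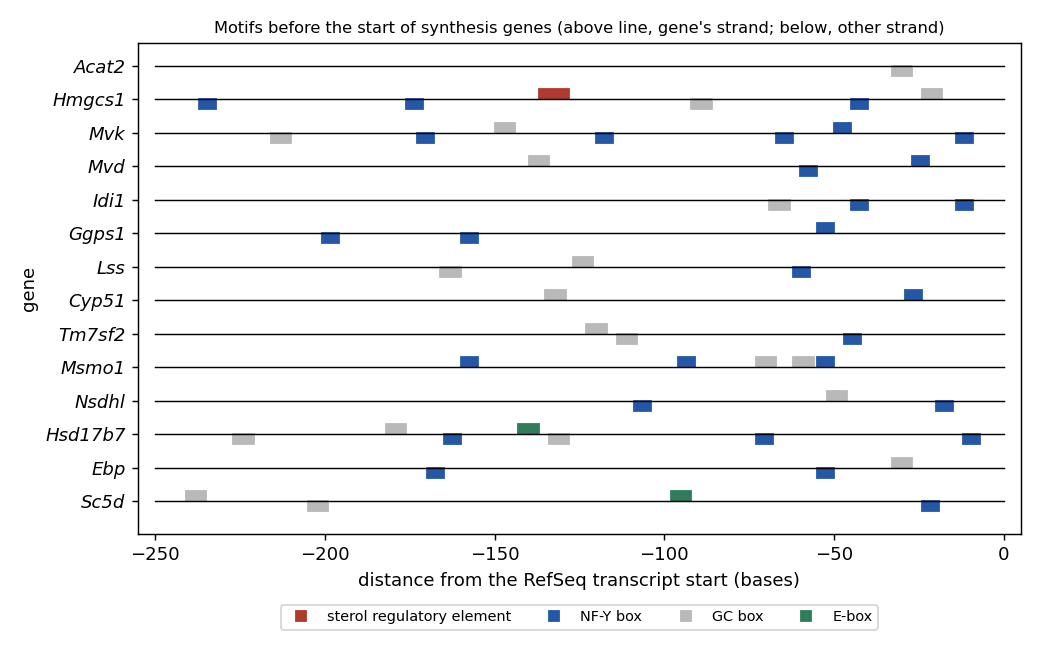
Motif matches in the 250 bases before the start of the 14 synthesis genes with a single promoter. The x axis is the distance from the transcript start in bases, each line is a gene, and boxes above or below the line lie on the gene's or the opposite strand. NF-Y boxes appear in 13 of the 14 genes, and the sterol regulatory element in Hmgcs1 only.

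The dissected material carried the signal of motoneurons together with that of neighbouring cells. All 9 neuron markers and 5 of 7 motoneuron markers lay above the array median in every mouse. Among the motoneuron markers, Nefh averaged 12.25, Prph 9.28 and Isl1 7.90. Chat, the acetylcholine-making enzyme, was the lowest and averaged 3.17, near the array medians (3.19 to 3.47). Oligodendrocyte markers were present, 8 of 9 of them above the array median in every mouse (Mbp, a myelin protein, averaged 12.08 and Mag 4.96). Astrocyte markers were present as well. Aldoc, the highest of those listed, averaged 11.32, S100b 10.57, Gja1, a connexin, 9.09 and Aldh1l1, the lowest listed, 3.64. The astrocyte list is not complete. Microglial markers moved with the groups at week 15: the mean level over 12 of them ranged from 3.53 to 3.93 in WT, 3.93 to 5.20 in vehicle-treated and 3.85 to 5.67 in G-CSF-treated SOD1 mice, with Aif1, Itgam and P2ry12 near background in every group. An 18S ribosomal control probe set separated the weeks (9.23 to 11.22 at week 11, 12.27 to 13.50 at week 15). WT mouse 6 of week 11 and vehicle mice 3 and 5 had been seen to stand apart in earlier work on these data, so results are also given without these 3 arrays, whose array weights were 0.22, 0.323 and 0.418. G-CSF-treated mouse 3 had a weight of 0.379, and the G-CSF results are also given without it, a choice made after seeing the data. Lower values may stem from fewer cells of a type or from less RNA per cell, and these cannot be told apart here.

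At week 11, 1 enzyme passed the thresholds, with lower levels in SOD1 than in WT mice. Of the 28 genes, 1 was called (unadjusted p under 0.05, adjusted p under 0.1 over all probe sets, at least 1.5-fold), against 1.71% of all genes (1.52% higher, 0.196% lower). This was Fdft1, squalene synthase, which joins the isoprenoid units to squalene. Its lowest, median and highest levels were 9.25, 9.72 and 10.16 in the 8 SOD1 mice and 9.92, 10.34 and 10.83 in the 6 WT mice. The groups overlapped, with 6 of the 8 SOD1 mice below every WT mouse. The difference was -0.61 (SE 0.16, adjusted p = 0.063), that is 1.52-fold lower. Without the 3 arrays it was -0.51 (adjusted p = 0.17) and was not called. The second Fdft1 probe set, 1448130_at, had mean levels of 8.60 in SOD1 and 8.85 in WT mice.

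Over the 18 enzymes at week 11 the median log2 difference was -0.0015, with 9 below and 9 above 0, beside a median of 0.0286 over all genes. Hsd17b7, the reductase that acts during removal of the methyl groups of the sterol ring, differed by -0.80 (SE 0.24, adjusted p = 0.13). It was not called. Its median was 9.68 in SOD1 and 10.60 in WT mice, and 7 of the 8 SOD1 mice lay below every WT mouse. Over the 10 control genes the median was 0.23, and none was called. An unadjusted p under 0.05 was found for 9 of the 28 genes, against 12.3% of all genes. The largest control gene difference was Abca1, the exporter that loads sterol onto lipoproteins, at 1.35 (SE 0.52, adjusted p = 0.28).

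At week 15, by the brightest probe sets, 4 enzymes of the later pathway were called lower in vehicle-treated SOD1 mice than in WT mice. In all 6 of the 28 genes were called, 5 lower and 1 higher, against 7.14% of all genes called, 5.2% lower and 1.94% higher. Both the enzymes (4 of 18) and the control genes (2 of 10) had calls. The 4 called enzymes, Sqle, Cyp51, Tm7sf2 and Hsd17b7, were among the 10 that turn squalene into cholesterol. These 10 had a median difference of -0.76, and 9 of them lay below 0. None of the 5 measured enzymes up to the isoprenoid units (median -0.28) or of the 3 from there to squalene (median -0.17) was called. Other probe sets of the early enzymes Hmgcs1 and Idi1 were called lower, however, and that of the later enzyme Lss higher, as given below. No test was made of the difference between these steps.

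Sqle, squalene epoxidase, puts oxygen on squalene and is known as a controlling step. Its lowest, median and highest levels were 9.71, 9.83 and 10.18 in WT and 8.19, 9.17 and 9.78 in vehicle-treated mice, with 6 of 7 vehicle-treated mice below every WT mouse. The difference was -0.85 (SE 0.17, adjusted p = 0.0047), or 1.80-fold. Cyp51, which removes a methyl group from lanosterol, had levels of 8.54, 8.71 and 9.15 in WT and 6.90, 7.87 and 8.55 in vehicle-treated mice. Only 1 of the 7 reached the WT range, and the difference was -0.97 (SE 0.22, adjusted p = 0.0097).

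Tm7sf2, a reductase that acts on the product of Cyp51, had levels of 4.85, 5.19 and 6.44 in WT and 3.76, 4.15 and 5.19 in vehicle-treated mice. Again 6 of 7 lay below every WT mouse, with a difference of -1.18 (SE 0.29, adjusted p = 0.018), or 2.27-fold. Hsd17b7 had levels of 10.45, 10.71 and 10.97 in WT and 9.40, 9.99 and 10.32 in vehicle-treated mice, and these groups did not overlap. Its difference was -0.82 (SE 0.24, adjusted p = 0.048). Without the 3 arrays the 4 enzymes differed by -0.94, -1.09, -1.22 and -0.81 and were called again.

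Stard4, a carrier that moves sterol between membranes inside the cell, had levels of 6.84, 7.26 and 7.85 in WT and 4.67, 6.07 and 7.19 in vehicle-treated mice. The vehicle-treated mice were spread widely, 5 of 7 lay below every WT mouse, and the difference was -1.20 (SE 0.32, adjusted p = 0.031). Without the 3 arrays it fell short, at -0.79 (adjusted p = 0.17). Abca1 went the other way. Its levels were 3.53, 5.88 and 6.68 in WT and 6.77, 7.47 and 7.84 in vehicle-treated mice, with no overlap, and the difference was 1.72 (SE 0.51, adjusted p = 0.053), or 3.29-fold. Abca1 is also made by microglia and astrocytes, and 5 of 10 tested microglial markers were called higher in this comparison (Tyrobp by 2.82, Ctss by 1.88). The astrocyte list used here is not complete, so no count over it is given. The part of either cell type in the Abca1 result was not tested. Of 9 neuron markers, Map2, Nefm and Rbfox3 were called lower, by 0.61 to 0.90 in size, and of 9 oligodendrocyte markers none was called (mean level 8.09 in WT and 7.73 in vehicle-treated mice). Their part in the lower enzyme levels was not tested.

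**Figure D2:**
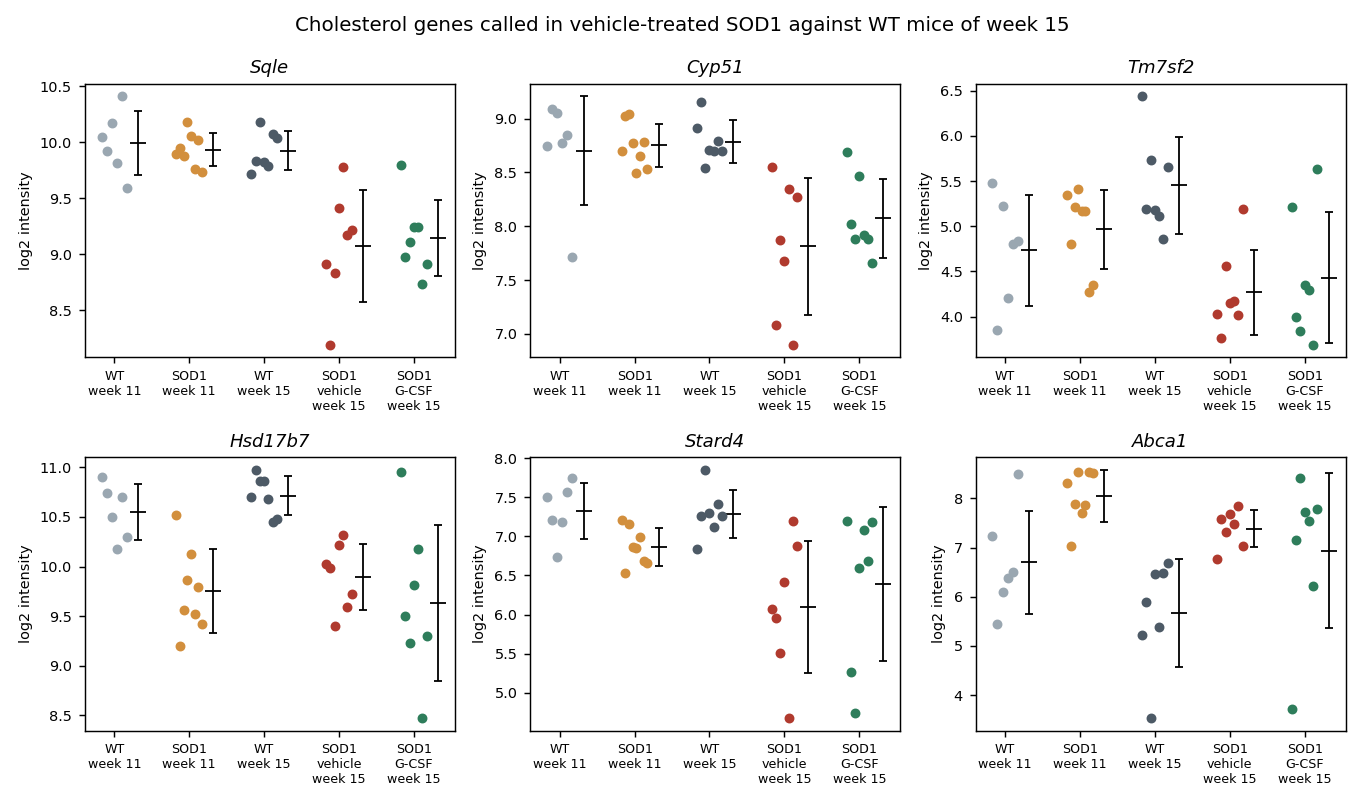
Levels of the 6 genes called at week 15, as log2 intensity per mouse (points) in the 5 groups, with the group mean and SD (bar). Hsd17b7 and Abca1 do not overlap between WT and vehicle-treated mice of week 15; Sqle, Cyp51 and Tm7sf2 have 1 vehicle-treated mouse in the WT range and Stard4 has 2.

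The enzymes that were not called lay mostly on the same side. Over all 18 enzymes, 15 differences were below 0, the median was -0.49 and 7 had an unadjusted p under 0.05 and a negative sign, and over all 28 genes 12 had such a p in either direction, against 21.8% of all genes. Over all genes the median was -0.0039 and 50.4% were below 0. The mean level over the 18 enzymes ranged from 7.56 to 7.84 in WT and from 6.85 to 7.42 in vehicle-treated mice, without overlap. Hmgcs1, which makes the precursor of mevalonate, was lower in 7 of 7 vehicle-treated mice than in every WT mouse (9.41, 9.63 and 10.07 against 10.13, 10.24 and 10.53). Its difference of -0.57 (SE 0.17, adjusted p = 0.054) was 1.49-fold and thus just under the fold required, and without the 3 arrays Hmgcs1 was called (-0.59, adjusted p = 0.078). Pmvk (0.42), Lss (0.57) and Mvk (0.012) were the enzymes with positive differences, and none of them was called.

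None of the sterol sensors was called. Srebf1, Srebf2, Scap, Insig1 and Insig2 differed by -0.28 to -0.054. The intervals of Srebf1 (-0.54 to 0.20) and Srebf2 (-0.65 to 0.34) leave room for moderate changes, and Srebf2 was dim (3.71 against 3.86). A brighter Srebf2 probe set, 1452174_at, was removed by the filter on spread. Its mean was 5.06 in WT and 4.89 in vehicle-treated mice. Apoe differed by -0.015 (95% interval -0.74 to 0.71). Cyp46a1 (0.55, adjusted p = 0.13) and Abcg1 (-0.68, adjusted p = 0.101) had unadjusted p-values under 0.05 and were not called.

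**Figure D3:**
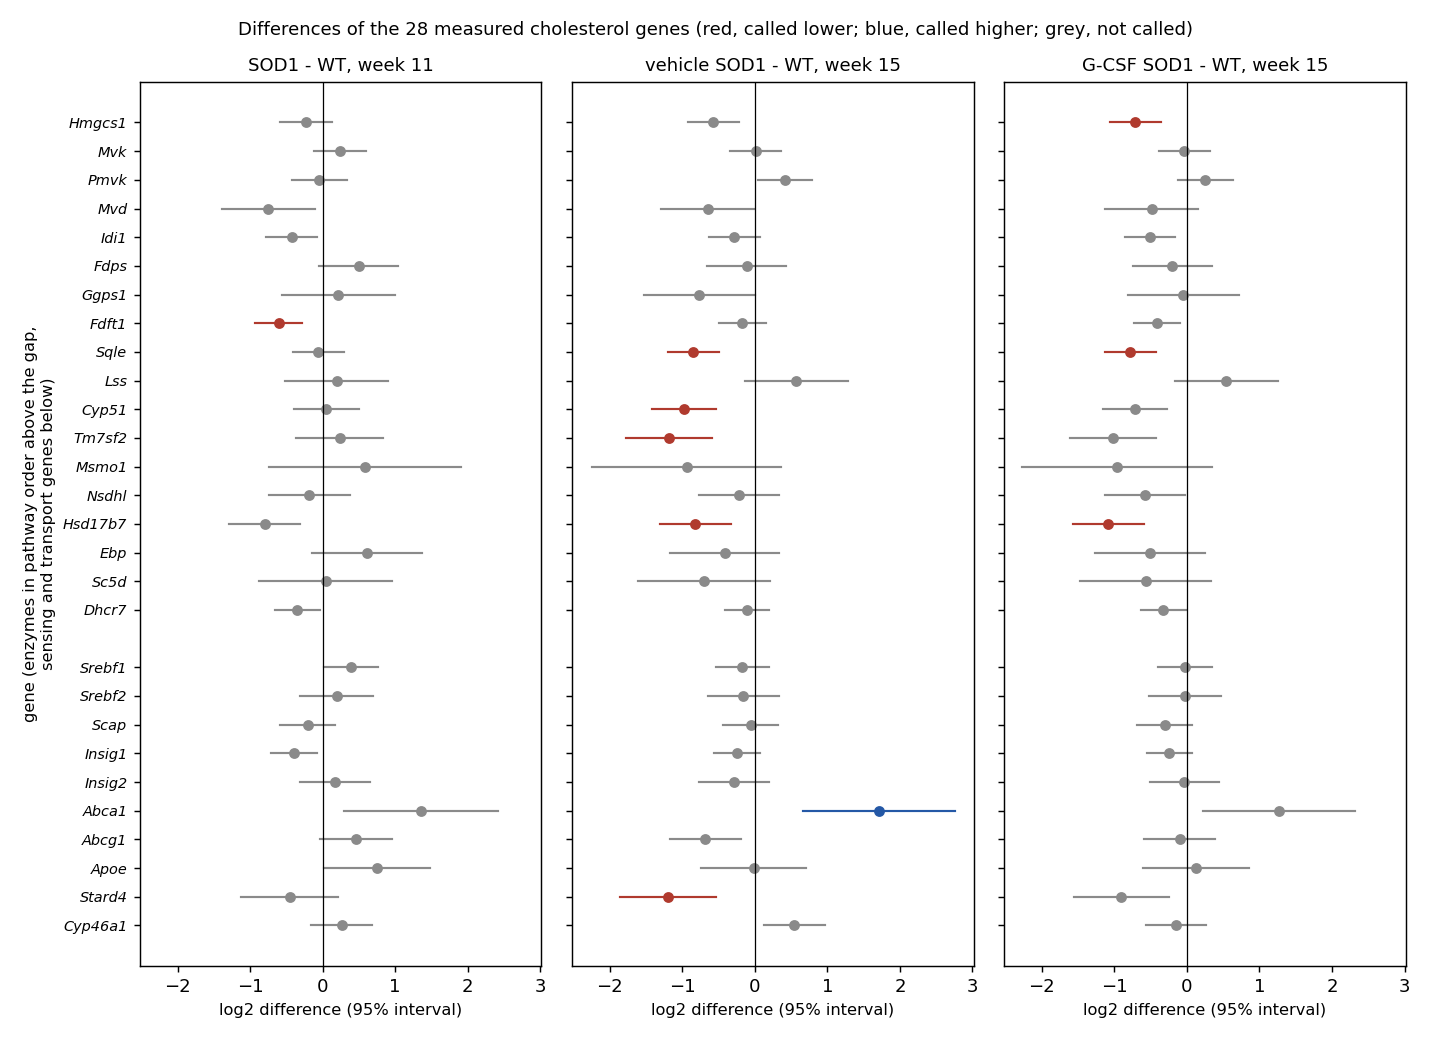
Log2 differences from WT with 95% intervals for the 28 genes, in pathway order, at week 11, in vehicle-treated and in G-CSF-treated SOD1 mice of week 15. Called genes are red (lower) or blue (higher): 1 at week 11, 6 with vehicle and 3 with G-CSF; all 3 panels share the x axis, and the 2 right panels share their WT mice.

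Probe sets of a gene did not always move alike. Over all 52 probe sets, 8 were called lower and 2 higher at week 15, against 5.91% of all filtered probe sets. This adds Hmgcs1 (1433446_at, -1.28, adjusted p = 0.053), Idi1 (1451122_at, -0.78, adjusted p = 0.023) and, upwards, Lss (1420014_at, 0.88, adjusted p = 0.013). Idi1 interconverts the isoprenoid units and Lss closes the sterol ring. A second probe set of Hsd17b7 was called too (1448865_at, -1.61, adjusted p = 0.0089). The other probe sets of Cyp51 differed by -0.59 and -0.14 and were not called. Those of Stard4 differed by -0.74 and, for the dim 1429239_a_at, by 0.77. With the median over all probe sets of each gene, Sqle, Tm7sf2 and Hsd17b7 stayed called, while Cyp51 (-0.49, adjusted p = 0.37), Stard4 (-0.54) and Abca1 (0.23) were not. Sqle and Tm7sf2 have 1 probe set each, so their differences could not change. Of the 3 Abca1 probe sets only 1 passed the filter, and the others were dim (means 2.71 and 2.24). The brightest probe set of Hmgcs1, 1433443_a_at, was removed by the filter on spread. Its mean was 12.90 in WT and 12.75 in vehicle-treated mice. The probe sets read for Hmgcs1, Fdft1 and Hsd17b7 (ending _x_at) and for Ggps1, Lss and Mvd (ending _s_at) are of kinds that may also match other transcripts.

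**Figure D4:**
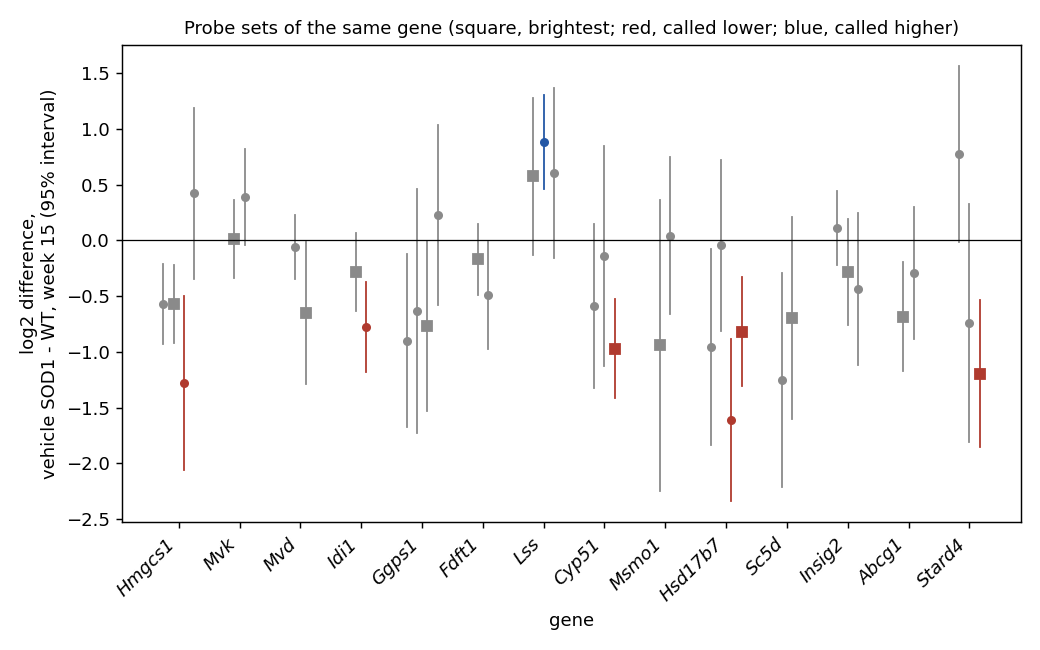
Log2 difference of vehicle-treated SOD1 from WT mice of week 15, with 95% intervals, for every filtered probe set of the 14 genes with more than 1. Squares are the brightest probe sets; red and blue are called lower and higher. Hsd17b7 has 2 probe sets called lower, while Cyp51 and Stard4 have 1 each.

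The change from week 11 to week 15 was tested as the difference of the SOD1 effects at the 2 ages. Of the 28 genes 4 were called, all lower at week 15, against 3.29% of all genes (0.779% higher, 2.51% lower). Sqle changed by -0.79 (SE 0.25, adjusted p = 0.099), Cyp51 by -1.02 (SE 0.31, adjusted p = 0.094) and Tm7sf2 by -1.41 (SE 0.41, adjusted p = 0.085). At week 11 these 3 had differed from WT by -0.058, 0.048 and 0.23. Abcg1, an exporter that hands sterol to lipoproteins, changed by -1.14 (SE 0.34, adjusted p = 0.090): its medians were 7.06 in WT and 7.62 in SOD1 mice of week 11, and 7.02 in WT and 6.46 in vehicle-treated mice of week 15. All 4 lay near the threshold. Without the 3 arrays the values were -0.80, -0.94, -1.47 and -1.04, with adjusted p from 0.14 to 0.21, and none was called. Other probe sets of Hmgcs1 (1433446_at, -1.78, adjusted p = 0.096) and Sc5d (1434520_at, -2.62, adjusted p = 0.057) were called too. Those of Cyp51 showed no such change. For 1422533_at the means were 7.46 in WT and 6.79 in SOD1 mice of week 11, and 7.59 and 7.00 (vehicle) at week 15. For 1422534_at they were 5.35 and 4.93, then 4.97 and 4.83. The second Abcg1 probe set, 1455221_at, was lower in SOD1 mice at both ages (5.11 and 4.89, then 4.97 and 4.68). For Hsd17b7 this difference was -0.019 (95% interval -0.72 to 0.68), from differences of -0.80 at week 11 and -0.82 at week 15. Of the other probe sets of Hsd17b7, 1448865_at and 1417871_at had wider gaps at week 15 and 1440057_at did not, and none was called. The means of 1448865_at were 5.42 in WT and 4.80 in SOD1 mice of week 11, and 5.93 and 4.32 (vehicle) at week 15. Those of 1417871_at were 4.39 and 3.94, then 4.96 and 4.01. The dimmer 1440057_at had 3.20 and 3.27, then 3.71 and 3.67. Age goes with the cohort, and in SOD1 mice also with the pump, so these cannot be told apart.

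Between G-CSF-treated and vehicle-treated SOD1 mice 0 of the 28 genes were called by limma's test, against 0.0491% of all genes (0.0281% higher, 0.021% lower). With an unadjusted p under 0.05 there were 2 of 28, against 8.64% of all genes. These were Cyp46a1, lower with G-CSF by 0.69 (SE 0.21, adjusted p = 0.32), and Abcg1, at 0.59 (SE 0.24, adjusted p = 0.51). Cyp46a1, the enzyme by which neurons turn cholesterol into a form that can leave the brain, had levels of 5.04, 6.21 and 6.92 with G-CSF and 6.48, 6.88 and 7.10 with vehicle, and it was called by the methods' own test, an ANOVA with Tukey's comparison. Of the 4 enzymes called with vehicle, Sqle differed between G-CSF and vehicle by 0.072 (95% interval -0.28 to 0.42), Cyp51 by 0.26 (-0.18 to 0.70), Tm7sf2 by 0.16 (-0.43 to 0.75) and Hsd17b7 by -0.26 (-0.75 to 0.23). The intervals of Cyp51 and Tm7sf2 upwards, and of Hsd17b7 downwards, reach changes of more than 1.5-fold. Some other probe sets ran the other way, by means with G-CSF against vehicle. These were Cyp51 (1422533_at, 6.55 against 7.00, and 1422534_at, 4.49 against 4.83), Abcg1 (1455221_at, 4.62 against 4.68) and Hsd17b7 (1448865_at, 4.81 against 4.32). For Hsd17b7, 1417871_at (3.59 against 4.01) and 1440057_at (3.05 against 3.67) were lower with G-CSF.

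Set against WT mice of week 15, the G-CSF group had 3 of 28 genes called, all lower and all enzymes, against 1.42% of all genes (0.449% higher, 0.975% lower). Hmgcs1 had levels of 8.42, 9.76 and 10.02, below every WT mouse, with a difference of -0.71 (SE 0.17, adjusted p = 0.044). Without G-CSF-treated mouse 3, the lowest, Hmgcs1 differed by -0.52 (adjusted p = 0.080) and was not called, while Sqle (-0.77) and Hsd17b7 (-1.01) were. Sqle had levels of 8.74, 9.11 and 9.80 and differed by -0.78 (SE 0.17, adjusted p = 0.027), with 6 of 7 mice below every WT mouse. Hsd17b7 had levels of 8.47, 9.51 and 10.95 and differed by -1.08 (SE 0.24, adjusted p = 0.027), again with 6 of 7 below. Cyp51 (-0.71, adjusted p = 0.13) and Tm7sf2 (-1.02, adjusted p = 0.103) missed the threshold, and both were called without the 3 arrays, none of which is in this comparison: their removal changes the shared estimate of the spread. Of the 18 enzymes 16 were below 0, with a median of -0.51, against a median of 0 over all genes. The mean level over the 18 enzymes ranged from 6.805 to 7.941 with G-CSF, which overlapped WT (7.563 to 7.841). The highest G-CSF-treated mouse lay above every WT mouse. An unadjusted p under 0.05 was found for 11 of the 28, against 13.6% of all genes. Other probe sets of Hmgcs1 (1433444_at, -0.66) and Idi1 (1451122_at, -0.83, adjusted p = 0.043) were called as well. None of the 10 control genes was called. Abca1 was at 1.27 (SE 0.51, adjusted p = 0.28), with 5 of 7 mice above every WT mouse and 1 at 3.71. The vehicle and G-CSF comparisons share their WT mice.

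The weeks themselves differed in WT mice too. Of the 28 genes 4 were called between WT mice of week 15 and week 11, against 5.37% of all genes (2.53% higher, 2.84% lower). Srebf1, which encodes a transcription factor of fatty acid and sterol genes, rose by 1.21 (SE 0.19, adjusted p = 0.00023), from 6.64, 7.27 and 7.52 to 8.12, 8.38 and 8.84, without overlap. Insig1 rose by 0.61 (SE 0.16, adjusted p = 0.022), from 8.80, 9.22 and 9.46 to 9.56, 9.69 and 10.10, also without overlap. Fdps, which makes farnesyl units, was lower by 1.16 (SE 0.28, adjusted p = 0.012), and Pmvk, a kinase of the mevalonate steps, by 0.65 (SE 0.19, adjusted p = 0.047). Between SOD1 mice of week 11 and vehicle-treated mice of week 15, 15 of 28 were called, 10 lower and 5 higher, against 27.6% of all genes (5.94% higher, 21.7% lower). The largest were Msmo1, a sterol oxidase (-1.88), Fdps (-1.76) and Apoe (-1.71), with Lss (1.23) on the other side. Sqle, Cyp51, Tm7sf2, Sc5d, Insig2, Abcg1 and Stard4 were also lower, by 0.69 to 1.13 in size. Fdft1, Srebf1, Insig1 and Cyp46a1 were higher, by 0.65 to 0.86. With the 18S signal, which separates the weeks, as a covariate, 0 of 28 genes were called in WT, against 0.0631% of all genes, and 2 (Fdps and Srebf1) in SOD1 mice, against 4.82% of all genes. Cell-type markers differed between the weeks as well. In WT mice 3 of 9 oligodendrocyte markers (Cnp, Mag and Mobp) were called higher at week 15 and microglial Ctss was lower by 1.78. In SOD1 mice 4 of 9 neuron markers were called lower (Eno2, Nefl, Nefm and Stmn2), and of 7 motoneuron markers 4 were called lower and 1 higher. Of 9 oligodendrocyte markers 2 were called higher (Cnp and Mbp) and 2 lower (Mal and Ugt8a). Of 10 tested microglial markers 2 were called higher (C1qb and Tyrobp). Their part in these results was not tested. Age, cohort and RNA handling cannot be told apart in these 2 comparisons.

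In SOD1 mice Fdps and Apoe separated the weeks without overlap. Fdps had levels of 5.54, 5.91 and 6.19 at week 11 and 3.60, 4.11 and 4.45 with vehicle at week 15 (SE of the difference 0.26, adjusted p = 1e-05), and its WT medians were 5.55 and 4.16. Apoe, the lipoprotein component that neurons take up, had levels of 4.66, 5.52 and 6.79 at week 11 and 2.94, 4.02 and 4.60 at week 15 (SE 0.35, adjusted p = 0.00043), with WT medians of 4.86 and 4.20. Both genes were thus lower at week 15 in both genotypes by their medians, though Apoe was not called in WT mice.

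Msmo1 had levels of 8.77, 9.10 and 9.27 in SOD1 mice of week 11 and 4.49, 7.27 and 8.83 with vehicle (SE 0.62, adjusted p = 0.022). The vehicle group was spread widely, and 6 of its 7 mice lay below every week 11 mouse. Its WT medians were 9.35 and 8.11, and its G-CSF median was 7.46. Insig2, a sterol sensor, had levels of 8.91, 9.44 and 9.88 at week 11 and 8.01, 8.59 and 8.98 with vehicle (SE 0.23, adjusted p = 0.0024), with 6 of 7 mice below. Its G-CSF median was 8.68.

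Sc5d, a desaturase of the last steps, had levels of 6.82, 7.39 and 7.72 at week 11 and 4.75, 6.58 and 7.95 with vehicle (SE 0.43, adjusted p = 0.095). These groups overlapped, with 1 vehicle-treated mouse above and 4 below every week 11 mouse. Lss had levels of 4.85, 5.83 and 6.52 at week 11 and 5.83, 6.87 and 8.46 with vehicle (SE 0.34, adjusted p = 0.0063), with 5 of 7 above. Cyp46a1 had levels of 5.71, 6.12 and 6.62 at week 11 and 6.48, 6.88 and 7.10 with vehicle (SE 0.20, adjusted p = 0.015), with 6 of 7 above, and its WT medians were 5.92 and 6.34. Fdft1, the enzyme lower in SOD1 mice of week 11, ran from 10.37 to 10.93 with vehicle, above all week 11 SOD1 mice. Its second probe set ran the other way, from a mean of 8.60 to 8.03 (1448130_at, -0.57, adjusted p = 0.060), and was not called.

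Probe sets disagreed for other genes too in SOD1 mice between the weeks. For Msmo1 the second probe set, 1459627_at, was called higher (0.98, adjusted p = 0.028). For Hmgcs1, 1433446_at was called lower (-0.95) and 1441536_at higher (1.01). Other probe sets of Idi1 (1451122_at, -1.02), Ggps1 (1419505_a_at, -0.86) and Sc5d (1434520_at, -1.66) were called lower, and that of Lss (1420014_at, 1.24) higher. The other 2 probe sets of Cyp51 were at 0.22 and -0.10 and those of Stard4 at 0.42 and -0.22, and none of these was called.

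**Figure D5:**
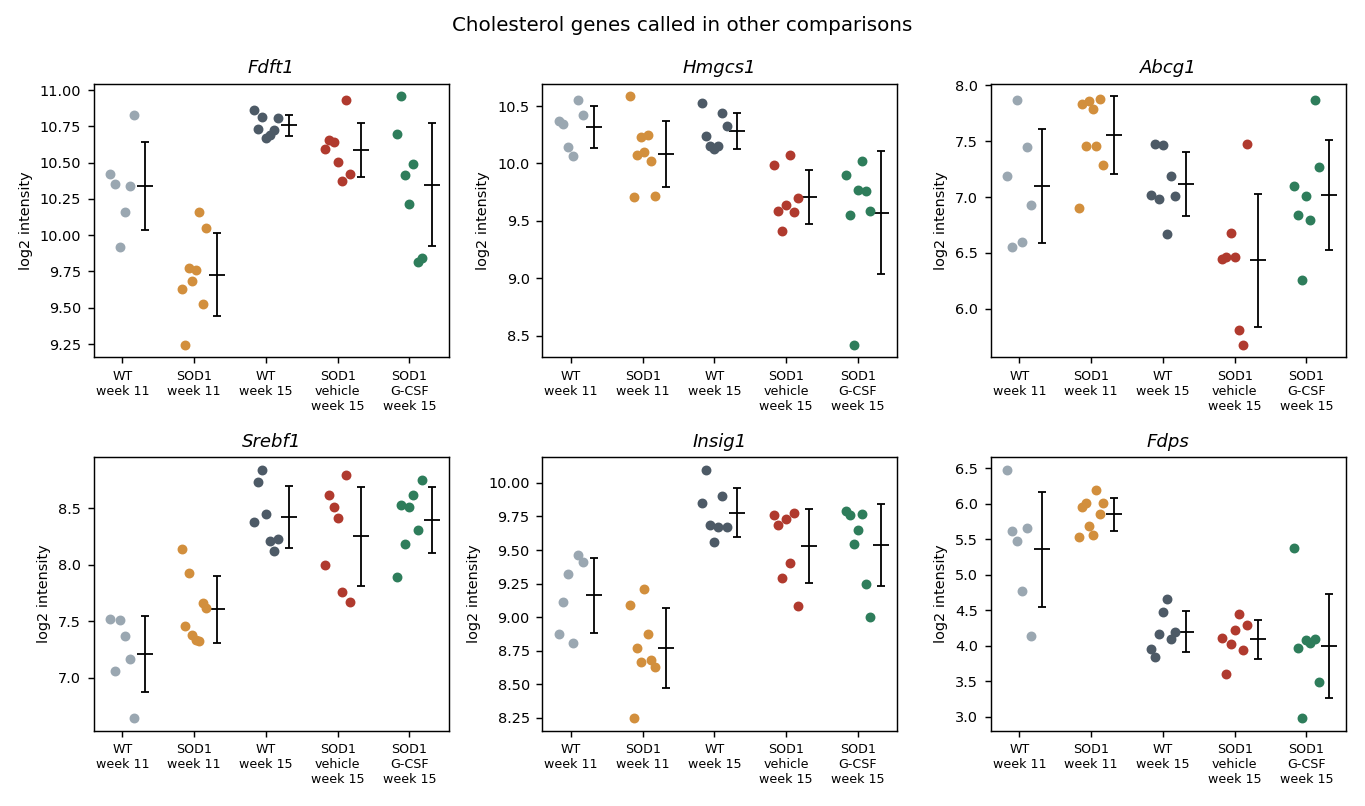
Levels of 6 genes called in other comparisons, as log2 intensity per mouse (points) in the 5 groups, with the group mean and SD (bar). Fdft1 is lowest in SOD1 mice of week 11, and Hmgcs1 of every G-CSF-treated mouse lies below WT of week 15. Srebf1 and Insig1 separate WT mice by week. Fdps overlaps between the weeks in WT mice, with 3 of 7 week 15 mice below every week 11 mouse.

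Across the 7 comparisons 19 of the 28 genes were called at least once at their brightest probe set, against 32.8% of all genes. The 9 that were not, by that probe set, are Mvk, Mvd, Idi1, Ggps1, Nsdhl, Ebp, Dhcr7, Srebf2 and Scap. Mvd, which makes the isoprenoid unit, varied widely in vehicle-treated mice (3.21, 4.65 and 5.70, against 4.91, 5.24 and 5.53 in WT of week 15). Dhcr7, the last enzyme of the route, had group means from 8.47 to 8.94. Ebp, a sterol isomerase, and Nsdhl, a dehydrogenase of the demethylation steps, had group means from 6.22 to 7.07 and from 6.73 to 7.60. Mvk, the mevalonate kinase, had group means from 5.07 to 5.42. Idi1 was highest in WT of week 11 (median 9.47) and lowest with G-CSF (median 8.73). Ggps1, which makes geranylgeranyl units for protein anchoring, had medians of 6.35 in WT, 5.41 with vehicle and 6.25 with G-CSF at week 15. Its other probe sets disagreed, with means given in the same order. They were 4.24, 3.34 and 4.07 for 1419505_a_at, 6.86, 6.22 and 5.68 for 1419506_at, and 4.80, 5.03 and 4.82 for 1429356_s_at. Scap had medians from 7.20 to 7.56 over the 5 groups.

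A wider list of 41 genes covered other sterol and isoprenoid enzymes, SREBP processing, lipoprotein receptors, transfer, storage, export and oxysterols. Of these 36 were measured. At week 11, 1 was called: Lrp1, a large receptor for lipoproteins with apolipoprotein E, higher by 0.87 (SE 0.15, adjusted p = 0.0024). This is 2.78% of the 36, beside 1.71% of all genes. At week 15 with vehicle 2 were called, which is 5.56% of the 36, beside 7.14% of all genes. Rnf139, a ubiquitin ligase of the sterol-sensing membrane, was lower by 2.19 (SE 0.50, adjusted p = 0.011), and Vldlr, another lipoprotein receptor, was higher by 1.02 (SE 0.25, adjusted p = 0.016). At the brightest probe sets none was called with G-CSF against vehicle or against WT. A second Vldlr probe set was called higher with vehicle and, by 1.35, with G-CSF against WT. Rnf139 (-2.41) and Lrp1 (-0.94) also differed between the ages, 5.56% of the 36 beside 3.29% of all genes. Over the 36 genes the median at week 15 was -0.10, beside -0.49 for the 18 enzymes and -0.0039 over all genes.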

How the data were processed

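Per the labels and the methods, RNA of laser-dissected motoneurons was amplified in 2 rounds and hybridised to Affymetrix mouse expression arrays. The authors ran GCRMA in Expression Console, whose version is not given in the sources used here, and what they deposited is a log2 intensity for each probe set. Probe sets were named through the platform annotation. Following the methods, probe sets above the 20th centile of intensity (2.40) on at least 4 arrays and with an SD of at least the 30th centile (0.24) were kept (31352). Groups were compared with limma 3.58.1 in R 4.3.3, with 1 mean per group over the 35 arrays and Benjamini-Hochberg adjustment over the 31352 probe sets. A call needs an unadjusted p under 0.05, an adjusted p under 0.1 and a fold of at least 1.5. The code was tested on simulated data. The genes named are all members of the list, and of other lists those called or moving with a result. Members and lists were chosen with earlier results of these data known. The number of mice limits the precision. In all 13 alternatives were planned and 1 (without G-CSF-treated mouse 3) was added after seeing the data.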

Additional observations from a re-analysis of the deposited data

Results flagged for a closer look

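In the 140 sets of values (28 genes in 5 groups), 6 held a mouse far from the rest of its group by Dixon's criterion, which chance alone reaches in about 1 in 20 sets. WT mouse 6 of week 11 was the lowest in 3 of them, with Msmo1 at 4.04 (others 8.87 to 9.70), Cyp51 at 7.71 (others 8.75 to 9.09) and Nsdhl at 6.19 (others 7.62 to 8.16). Nsdhl was also low in SOD1 mouse 1 of week 11 (6.05, others 7.35 to 8.11). Hmgcs1 was low in G-CSF-treated mouse 3 (8.42, others 9.55 to 10.02), and Insig2 in WT mouse 1 of week 15 (7.60, others 8.84 to 9.23).

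The SOD1 effect was called different between week 15 and week 11 for 4 of the 28 genes by limma's test of that difference, against 3.29% of all genes. These were Sqle (-0.79), Cyp51 (-1.02), Tm7sf2 (-1.41) and Abcg1 (-1.14). All 4 lay near the threshold. None was called without the 3 arrays, with quantile normalization or with the 18S covariate, and Cyp51 changed sign with the median of its probe sets.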

How the results depend on the processing

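Of 458 values of called genes recomputed under the alternatives, 378 kept direction and call, 76 kept direction without the call and 4 changed sign. At week 11 the 1 called gene became 0 at an adjusted p under 0.05, with the replicate block, with the median of all probe sets and without the 3 arrays, 2 with Tukey's comparison and with quantile normalization, and 3 with array weights. The shares of all genes called were 0.652%, 0.54%, 1.14%, 1.38%, 2.81%, 0.793% and 4.05%, in that order. At week 15 with vehicle 6 became 3 with the median of all probe sets, against 4.5% of all genes. For G-CSF against vehicle 0 became 1 with Tukey's comparison, against 1.19% of all genes. For G-CSF against WT 3 became 5 with Tukey's comparison, with the median of all probe sets and without the 3 arrays. The shares of all genes called were 2.95%, 1.1% and 3.53%. For the difference between the ages 4 became 0 at an adjusted p under 0.05, with quantile normalization, with the 18S covariate and without the 3 arrays, and 2 with the replicate block or the median of all probe sets. The shares of all genes called were 0.484%, 1.24%, 2.45%, 0.68%, 2.17% and 2.15%, in that order. For the weeks in WT 4 became 0 with the 18S covariate, against 0.0631% of all genes. For those in SOD1 mice 15 became 2 with that covariate (4.82% of all genes) and 9 with the median of all probe sets (16.5%). With that median Cyp51 turned to 0.19 (difference between the ages) and 0.31 (weeks in SOD1 mice) and Fdft1 to -0.089 (weeks in SOD1 mice), and with the 18S covariate Lss turned to -0.080. The cause was not tested. Tukey's comparison gives no value for the difference between the ages. Of 1385 values not called, 30 became called and 60 changed sign. Without G-CSF-treated mouse 3, an alternative chosen after seeing the data, the counts were 1, 7, 0, 2, 4, 5 and 15, in the order above. The shares of all genes called were then 1.82%, 8%, 0.0912%, 1.11%, 4.16%, 5.92% and 28%.

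Replicate numbers do not pair the mice (correlation of deviations -0.21 to 0.14 in 66 same-number pairs, 1 of them over 0.1), so the block is given as a check only. Quantile normalization moved the share of higher genes among all called at week 15 from 27.1% to 43.8%, against WT with G-CSF from 31.5% to 49.5%, between the ages from 23.7% to 52.0%, and in SOD1 mice between weeks from 21.5% to 38.1%. Of all genes called, week 11 had 244, which changed with an adjusted p under 0.05 (93), the replicate block (77), quantile normalization (113), Tukey's comparison (400) and array weights (577). Week 15 had 1018, and 590 with an adjusted p under 0.05 or 654 with only its own groups. G-CSF against vehicle had 7, and from 0 with only its own groups to 169 with Tukey's comparison. G-CSF against WT had 203, and from 108 with an adjusted p under 0.05 to 503 without the 3 arrays. The difference between the ages had 469, which fell to 69 with an adjusted p under 0.05, 97 without the 3 arrays, 177 with quantile normalization and 309 with the block, and rose to at most 634 with array weights. The weeks in WT had 765, and 9 with the 18S covariate, 1191 without the 3 arrays and 1675 with array weights, and those in SOD1 mice 3942 and 687 with the 18S covariate.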
